A study of Mus musculus with 3 samples.

Results

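Trophoblast regulators and keratins were followed in J1 mouse embryonic stem cells (mESCs) in which MEK was inhibited. The 10 genes were Cdx2, Eomes, Elf5, Tfap2c, Tead4, Gata2, Gata3, Krt7, Krt8 and Krt18, out of 20660 named genes on the array. They were taken by name, and every probe whose accession maps to such a name was used, which gave 11 of 27235 named probes. Eomes had 2 probes and each of the others had 1. J1 is an mESC line of the strain 129S4/SvJae, which the labels trace to the inner cell mass. All 3 samples form 1 group, J1 mESCs kept with leukemia inhibitory factor (LIF, 1000 U/mL) and given 1 µM of the MEK inhibitor PD0325901 (PD) for 24 h. They were grown on gelatin without feeders and came from independent experiments according to the methods. Each sample was hybridised to its own Agilent array. Cells without PD were not analysed here, so no effect of PD on these genes was computed and no p-value is given.

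The trophoblast is the outer layer of the blastocyst and forms much of the placenta. Tead4, bound by the co-activator Yap1 when Hippo signalling is low, switches on Cdx2 in the outer cells of the morula, and Gata3 acts beside Cdx2. Eomes, Elf5, Tfap2c and Gata2 then act in trophoblast stem cells and their descendants. Krt8 and Krt18 encode the keratin pair of simple epithelia and are classical markers of the trophectoderm, and Krt7 marks trophoblast in the placenta. In mESCs Pou5f1 (Oct4) holds Cdx2 down, and Elf5 is known for a promoter that is methylated in mESCs and open in trophoblast stem cells.

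Of the 10 genes, 8 were detected on each of the 3 arrays, where detected means flagged well above background by the scanner software. Cdx2 and Elf5 were detected on none. The same rule held for 72.6% of all named genes, so 8 of 10 was near the background share. Counted by probes it was 9 of 11, against 72.2% of named probes. The detected genes ranged from Gata2, with a mean processed signal of 26.0 ± 1.87 (SD, n = 3 here and below), to Tfap2c at 6527 ± 362. The processed signal is the brightness of a spot after the scanner software took off the background. Brightness depends also on the sequence of a probe, so the order of genes by signal was not tested. The cells are a bulk sample, in which fewer cells with a transcript and less RNA per cell cannot be told apart. All 11 probes had a single spot per array, so no test of the arrays against the error of spots was possible for them.

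**Figure D1:**
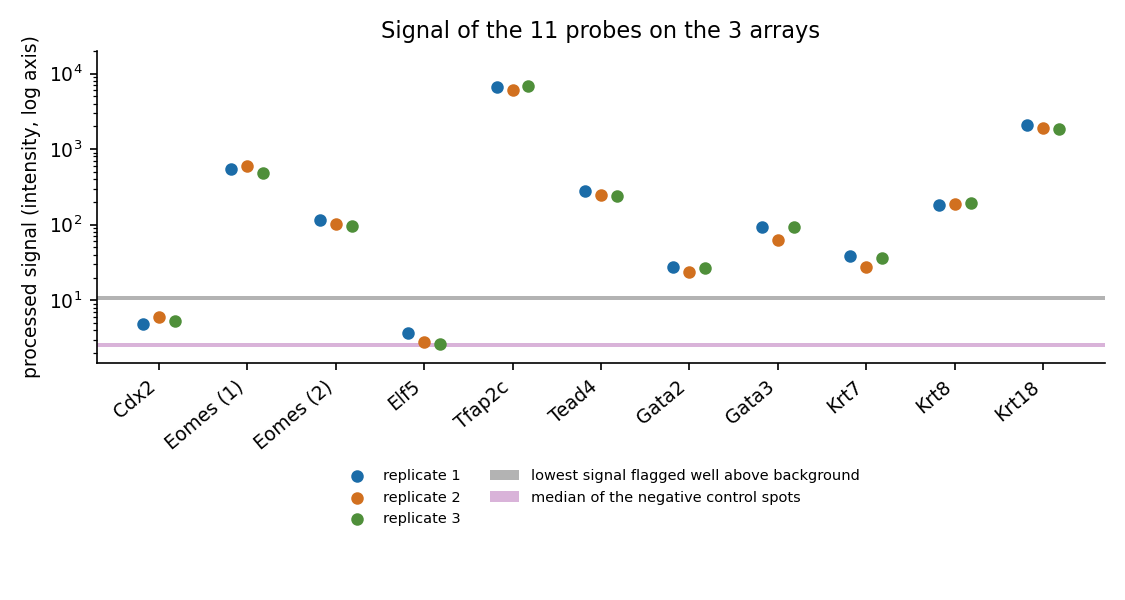
Processed signal (intensity, log axis) of each of the 11 probes, with 1 point per array; Eomes (1) and Eomes (2) are its brighter and dimmer probe. The grey band is the range over the arrays of the lowest signal flagged well above background (10.1 to 11.4), the violet band that of the median negative control (2.42 to 2.75); the points of Cdx2 and Elf5 lie below the grey band and those of the other genes above it.

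The arrays were alike in the brightness of their probes, but replicate 2 had more bright negative controls. The 75th percentile of the signal over probes was 551, 511 and 527 on replicates 1 to 3, and no spot was saturated. The 3 arrays lay on 1 slide and were read in 1 scan. Each array held 308 spots of a negative control, with medians of 2.42, 2.75 and 2.48, of which 5, 16 and 4 were well above background. The 95th percentiles of these spots were 2.74, 12.7 and 2.82 on replicates 1 to 3. All 10 ES cell markers, among them Pou5f1, Sox2, Nanog, Zfp42 and Esrrb, were detected, against 72.6% of all named genes. No spot of the 11 probes carried an outlier flag. None lay in the 6 of 48 blocks of the array where replicate 2 had at least 10 non-uniform spots, which held 12.6% of named probes.

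The homeobox gene Cdx2, the regulator that sets trophectoderm apart, gave signals of 4.90, 5.98 and 5.26 on replicates 1 to 3. All 3 values lay below the lowest signal flagged well above background on the same array (10.1, 11.4 and 10.3). They stood above 295, 286 and 301 of the 308 negative control spots, and the looser flag for positive and significant signals was set on all 3 arrays. Elf5, an ETS factor of the trophoblast stem cell, gave signals of 3.73, 2.81 and 2.64. These were above 293, 179 and 204 of the 308 negative controls, and the looser flag was set on 1 array. On replicate 2, where the 95th percentile of the negative controls was 12.7, Cdx2 lay below that percentile. Neither value shows that the transcript was absent.

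The sequences around the starts of these genes are shown for the 2 genes that were not detected and for the keratin pair that was. They are RefSeq sequences of GRCm38.p6, 250 bases before and 50 after the start, 5′ to 3′ on the strand of the gene, with CpG dinucleotides in capitals. The windows are Cdx2 at chr5:147307200-147307499 (minus strand), Elf5 at chr2:103411848-103412147 (start 1) and chr2:103423818-103424117 (start 2, both plus strand), Krt8 at chr15:102004293-102004592 (minus strand) and Krt18 at chr15:102027966-102028265 (plus strand).
Cdx2: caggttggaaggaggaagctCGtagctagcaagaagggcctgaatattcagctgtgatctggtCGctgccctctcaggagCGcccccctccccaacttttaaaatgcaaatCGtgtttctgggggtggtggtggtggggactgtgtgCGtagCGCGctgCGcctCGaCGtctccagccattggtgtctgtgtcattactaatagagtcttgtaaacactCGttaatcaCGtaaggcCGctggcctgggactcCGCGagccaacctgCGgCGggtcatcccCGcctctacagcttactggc
Elf5, start 1: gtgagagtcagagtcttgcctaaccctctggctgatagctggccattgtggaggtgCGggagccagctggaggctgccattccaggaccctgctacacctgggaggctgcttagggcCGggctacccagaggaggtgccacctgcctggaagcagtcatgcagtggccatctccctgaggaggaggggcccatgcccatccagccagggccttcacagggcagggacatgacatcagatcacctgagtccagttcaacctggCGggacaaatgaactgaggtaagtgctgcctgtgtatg
Elf5, start 2: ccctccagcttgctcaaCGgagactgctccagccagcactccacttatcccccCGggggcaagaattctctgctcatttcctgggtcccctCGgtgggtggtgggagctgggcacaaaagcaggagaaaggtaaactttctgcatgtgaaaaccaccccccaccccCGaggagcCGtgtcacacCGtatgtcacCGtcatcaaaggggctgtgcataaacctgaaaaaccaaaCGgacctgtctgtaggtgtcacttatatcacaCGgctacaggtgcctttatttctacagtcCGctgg
Krt8: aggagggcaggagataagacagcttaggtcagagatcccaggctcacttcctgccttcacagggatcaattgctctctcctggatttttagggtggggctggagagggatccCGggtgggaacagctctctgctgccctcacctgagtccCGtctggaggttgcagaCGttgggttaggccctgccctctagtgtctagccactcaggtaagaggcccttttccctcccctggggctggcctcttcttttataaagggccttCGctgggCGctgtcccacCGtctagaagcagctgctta
Krt18: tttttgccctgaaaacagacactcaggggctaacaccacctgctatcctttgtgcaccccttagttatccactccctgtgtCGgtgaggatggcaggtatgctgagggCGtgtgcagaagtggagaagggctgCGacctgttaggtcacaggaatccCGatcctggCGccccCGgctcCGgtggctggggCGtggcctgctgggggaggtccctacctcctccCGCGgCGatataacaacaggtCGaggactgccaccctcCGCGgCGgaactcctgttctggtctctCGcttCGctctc

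The Cdx2 window held 18 CpGs, more than in 70.3% of the 32851 promoter windows of the table, and Krt18 was alike with 17. The 2 Elf5 windows held 3 and 10, and Krt8 held 6, against a median of 7 over all windows. Sequences were at hand for 8 of the 10 genes. Of those not printed, Eomes had 10 CpGs, Krt7 had 21, Gata3 had 22, and the 2 starts of Gata2 had 32 and 29. Over 16374 named genes with a window, the share detected rose with the CpGs of the richest window of a gene. It was 33.8% with 0 to 4 CpGs, 62.6% with 5 to 9, 85.6% with 10 to 19 and 92.5% with 20 or more. Cdx2 and Elf5 were thus not detected in a class where most genes were, together with Eomes and Krt18, which were detected. Krt8 was detected in the class of 5 to 9. These are shares of genes on the same arrays and carry no test.

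**Figure D2:**
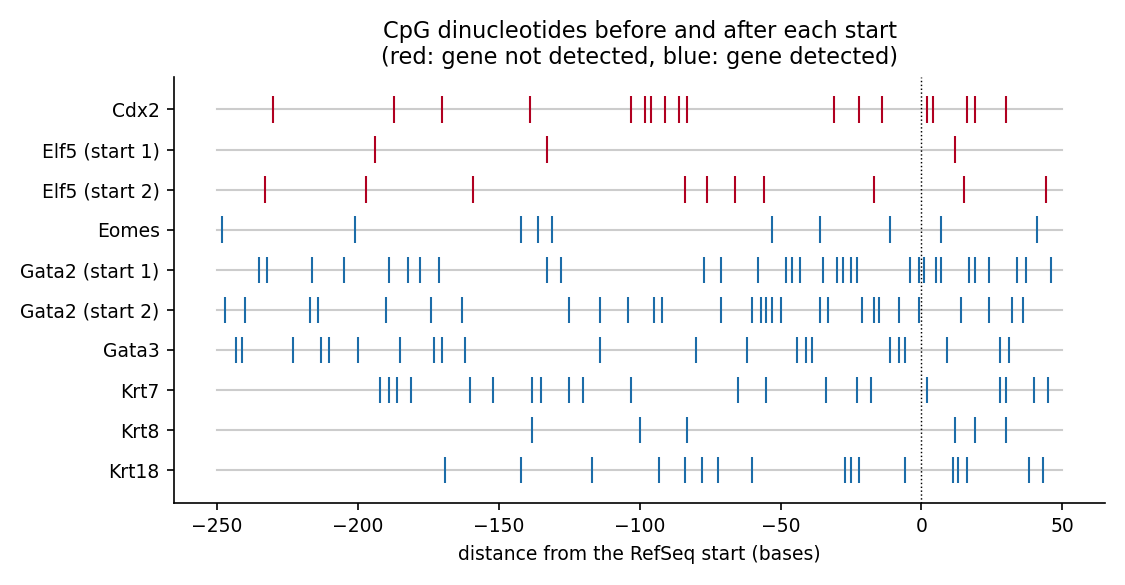
Each line is the window from 250 bases before to 50 bases after a RefSeq start, and each tick is a CpG dinucleotide at its distance from the start in bases. Red marks the genes not detected on any array, Cdx2 (18 ticks) and Elf5 (3 and 10), and blue the detected ones, from Krt8 (6) to the first start of Gata2 (32).

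Short motifs were looked for on both strands of the 10 windows of these 8 genes. The TATA box letters TATAAA were found in Krt8 only, as 2 overlapping matches on opposite strands, and in 13.6% of all windows. The GC box GGGCGG had 4 matches in Krt7, 2 in Gata3, and 1 and 3 at the starts of Gata2, and was in 35.7% of all windows. The AP-2 motif GCCNNNGGC, which the product of Tfap2c can bind, was in 5 of the 10 windows against 16.6% of all. These were Gata3 (3 matches), Krt7 (2), Cdx2, Krt18 and the second start of Gata2 (1 each). The fixed letters of this motif are G and C, and these 5 windows were 57.3% to 73.7% G and C. The other 5 were 47.3% to 69.3%, and the median over all windows was 52.7%. A comparison with windows of like G and C content was not made. The TEAD motif GGAATG was in the first Elf5 and the second Gata2 window (14.7% of all), and the GATA motif AGATAA in Krt8 (11.2%). A match is only a run of letters, and binding was not measured.

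Of the factors that act early, Tead4 gave signals of 277, 246 and 241 on replicates 1 to 3. Its level was -1.06 ± 0.07, where a level is the log2 signal minus the 75th percentile of the array. The values lay within 0.14 log2 units of each other. Gata3 gave 92.3, 63.4 and 92.9, with replicate 2 below both others. Its SD of 0.27 log2 units was the largest of the 9 detected probes, and 93.2% of the 1000 detected probes nearest in level had a smaller SD. Replicate 2 differed from the mean of the other arrays by -0.47 log2 units, and 4.9% of those 1000 probes departed at least as far on that array. Replicate 2 was the lower array under each of 8 settings of the processing, with differences of -0.54 to -0.23 log2 units. These settings reprocess the same spots. They include the main setting and the keeping of outlier spots, which could not differ from it here. The range of Gata3 stayed below 1 log2 unit, a limit that 1.13% of detected named probes passed and 0 of the 9.

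Among the factors of the trophoblast stem cell, the T-box gene Eomes was measured by 2 probes. The brighter gave 549, 597 and 484, and replicate 2 was the highest. The dimmer gave 114, 103 and 94.8, where replicate 1 was the highest. Replicate 3 was the lowest with both probes, and their order of replicates 1 and 2 differed. The SD was 0.17 log2 units for the brighter probe, larger than that of 91.9% of 1000 probes nearest in level, and 0.10 for the dimmer. Tfap2c, the gene of AP-2 gamma, which is also used in germ cells and naive pluripotent cells, gave signals of 6678, 6114 and 6789. Its level was 3.62 ± 0.06, higher than 89.2% of named probes, and its arrays lay within 0.11 log2 units. Gata2, a zinc finger factor of trophoblast and of blood cells, gave 27.2, 23.8 and 26.9. These were 2.69, 2.09 and 2.62 times the lowest signal well above background. Its SD was 0.07 log2 units, and 6.5% of the 1000 probes nearest in level had a smaller one. Its range over the arrays depended on the scaling, being 0.13 log2 units here, 0.25 after quantile normalization, 0.22 after scaling by the median and 0.27 in the table the authors deposited.

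Signals as low as that of Gata2 also came from genes that mESCs are not known to use. Of 1062 olfactory receptor genes 122 (11.5%) were detected on all arrays, and of 252 vomeronasal receptor genes 30 (11.9%), against 72.6% of all named genes. The mean signals of these 1314 receptor genes had a median of 2.84 and a 95th percentile of 45.0. Gata2 (26.0) and Krt7 (34.5) lay below that percentile, above 91.5% and 93.7% of receptor genes. Gata3 (82.9) was above 97.0%, Eomes above 99.5%, and Tfap2c above all of them. Cdx2 exceeded 71.2% and Elf5 57.7%. Whether unspecific hybridisation had a part in the dim signals was not tested.

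The keratins differed widely in brightness. Krt18, the acidic partner of the pair, gave 2067, 1887 and 1841 on replicates 1 to 3, a level of 1.87 ± 0.05. Krt8, its basic partner, gave 185, 189 and 193, a level of -1.49 ± 0.07. Both were steady between arrays, within 0.10 and 0.13 log2 units. The pair forms filaments together, but the 2 probes differ in sequence, so the gap between their signals cannot be read as unequal transcript. Krt7, another basic keratin of simple epithelia, gave 39.1, 27.6 and 36.7, with replicate 2 the lowest. Its SD of 0.22 was larger than that of 64.5% of probes near in level. Replicate 2 differed from the mean of the others by -0.38 log2 units, and by -0.02 after normexp background correction scaled by the 75th percentile. That setting started from the spot and background medians and added a constant of 50 to every signal.

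**Figure D3:**
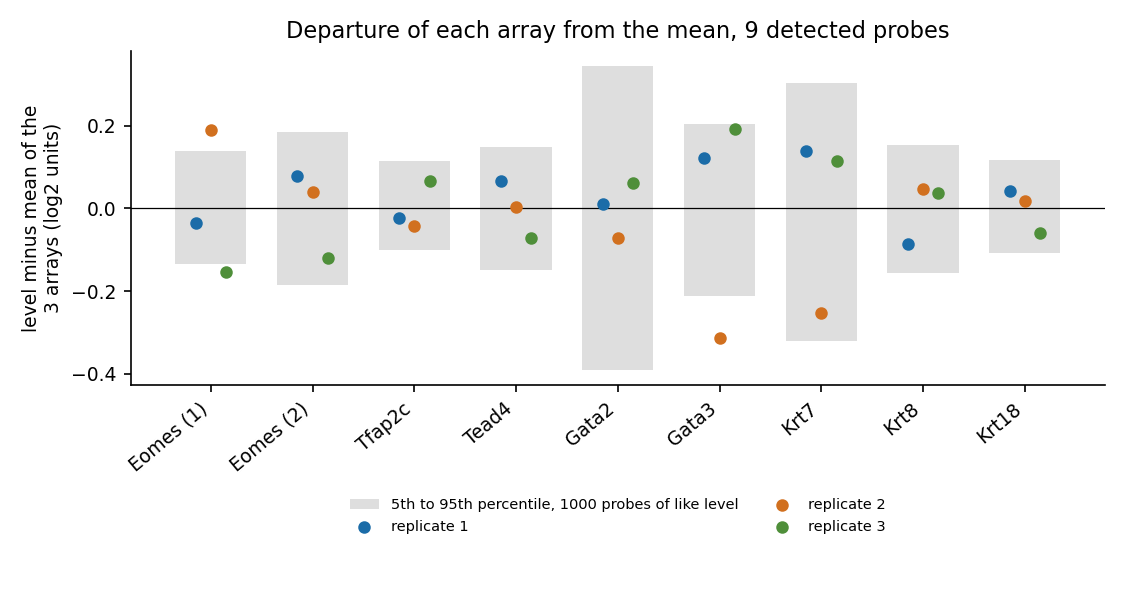
Level of each array minus the mean of the 3 arrays (log2 units) for the 9 detected probes, with 1 point per array. The grey bar spans the 5th to 95th percentile of such departures over the 1000 detected named probes nearest in level; replicate 2 of Gata3 and of the brighter Eomes probe lies outside it, as does replicate 3 of that Eomes probe.

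The departures of the 9 detected probes had no common direction. Replicate 2 was the lowest array in 4 of them (Tfap2c, Gata2, Gata3 and Krt7) and the highest in 2 (the brighter probe of Eomes and Krt8). Over all detected named probes replicate 2 was the lowest in 29.2%. Replicate 2 was the array farthest from the mean of the others in 4 of the 9 probes and in 42.7% of all detected named probes. The median SD of the 9 probes was 0.074 log2 units, against 0.077 over 19674 detected named probes.

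The keratin family gave a wider view. Of 53 keratin genes on the array, 25 (47.2%) were detected on all arrays, 5 on some and 23 on none. Of all named genes, 72.6% were detected on all arrays. The brightest was Krt222 (2.85 ± 0.05), though only 1 of its 2 probes was detected. Krt18 followed, then Krt73 (1.00 ± 0.05) and Krt16 (0.48 ± 0.12). Krt19, like Krt20 an acidic keratin of simple epithelia, had signals of 625, 619 and 741. Krt20 had 255, 279 and 265. Keratins of stratified epithelia were mixed: Krt14 (275, 238 and 291) and Krt10 (254, 254 and 271) were detected, and Krt1 (4.29, 4.04 and 2.73) was not. Krt5, the basal partner of Krt14, gave 40.2, 56.5 and 36.0, and 1 of its 2 probes was detected. Keratins are similar in sequence, and whether a probe also catches a relative was not tested.

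**Figure D4:**
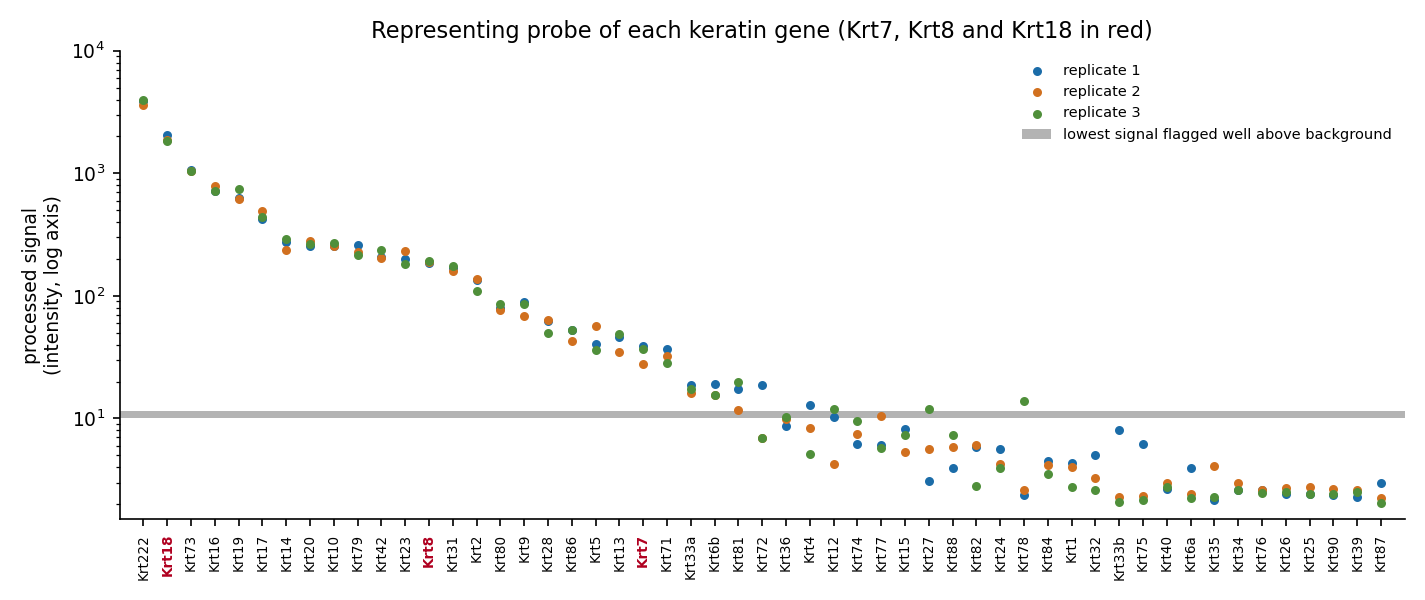
Processed signal (intensity, log axis) of the representing probe of each of 53 keratin genes, ordered by mean level, with 1 point per array. Krt18, Krt8 and Krt7 (red) stand at mean signals of 1932, 189 and 34.5, and the 23 genes detected on no array lie near or below the grey band of 10.1 to 11.4.

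Krt8 and Krt18 lie next to each other in the genome, with 0 coding genes and 2 long noncoding RNA genes between them in the RefSeq order. The coding neighbour of Krt8 on its other side, Krt78, gave 2.35, 2.62 and 13.8 and was detected on 1 array. Krt87, a neighbour of Krt7, gave 2.98, 2.26 and 2.05 and was detected on none. Krt78 and Krt87 were thus near background, while Krt7 and Krt8 were detected. The other direct neighbours of Krt7, Krt8 and Krt18 were long noncoding RNA genes without a named probe. Genes farther away were not compared, so no statement about the wider region can be made.

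Genes that work with keratins were set against the 72.6% of all named genes detected. Among 11 genes of desmosomes and plakins, which anchor keratin filaments, 9 were detected (81.8%), near that share, led by Pkp3 (level 3.48 ± 0.14), Pkp2 (3.32 ± 0.05), Plec (3.12 ± 0.02) and Pkp4 (1.22 ± 0.01). Dsc2 and Pkp1 were above background on some arrays only. All 11 epithelial junction genes were detected, with F11r (3.38 ± 0.05), Cdh1 (3.33 ± 0.02), Tjp1 (3.30 ± 0.06) and Epcam (2.29 ± 0.12) the brightest. Of 13 other intermediate filament genes 12 were detected, all but Nefm. The brightest were Vim (5.61 ± 0.02), the filament of mesenchymal cells and of many cells in culture, and Lmnb1 (4.23 ± 0.07), Ina (3.32 ± 0.11) and Lmna (3.20 ± 0.08).

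The paralogues of the 7 transcription factors were detected in 12 of 17 cases (70.6%), near the 72.6% of all named genes. Tead2 was the brightest, with signals of 24648, 23426 and 24041, and Tead1 followed (4365, 3095 and 4188), then Gata5 (858, 911 and 923) and Elf3 (724, 726 and 697). Cdx1, the paralogue of Cdx2, had signals of 485, 510 and 492 and was detected on all arrays, while Cdx4 (2.65, 3.03 and 2.79) was detected on none. Tbr1, Tfap2b and Tfap2d were also detected on none, and Tfap2e on 2 arrays. Of the Hippo pathway genes, which set the activity of TEAD factors, all 12 were detected, and Yap1 was the brightest after Tead2 at 14156, 13109 and 13353.

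Further genes of the trophoblast were measured, to be read against the same 72.6%. Of the 12 genes listed for the trophoblast stem cell and ectoplacental cone 11 were on the array by accession, and all 11 were detected. Among the brightest were Bmp4 (1.67 ± 0.03), Ets2 (1.56 ± 0.13) and Ascl2 (0.91 ± 0.13). Bmp4 is also a known gene of mESCs, and only 1 of its 2 probes was detected on all arrays. Fgfr2, the receptor for Fgf4 in trophoblast stem cells, gave 130, 138 and 128. Of 13 genes of differentiated trophoblast 8 were detected (61.5%), and the difference between these lists was not tested. Dlx3 (2.76 ± 0.07), Gcm1 (2.70 ± 0.10), Cited2 (1.77 ± 0.07) and Prl3b1 (0.32 ± 0.07) were the brightest. Prl3d1 and Synb among these 8, and Tfap2a among the 11 above, also had only 1 of 2 probes detected on all arrays. Hand1 (4.42, 3.49 and 2.76), Plac1 and Ctsq were detected on no array, and Tpbpa and Syna on 1 array each.

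Genes known to hold trophoblast genes down in mESCs were also measured. Of 12, 11 were detected (91.7%), against 72.6% of all named genes. The detected ones were led by Trim28 (6.71 ± 0.06), Uhrf1 (6.12 ± 0.02), Mbd3 (5.50 ± 0.08) and Pou5f1 (4.56 ± 0.42). The median level of the 11 was 3.80, against 0.61 for all detected genes. Nanog (0.39 ± 0.05) was below that latter median. The gene not detected on all arrays was Eed, whose spot on replicate 2 carried an outlier flag and was left out. Eed was bright on replicates 1 and 3, with signals of 40862 and 34764 and a mean level of 6.13. Dnmt1, which keeps DNA methylation, gave 3311, 3139 and 3081. Pou5f1 itself gave 11265, 16872 and 10239, with replicate 2 the highest.

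Markers of other cells that share keratins or GATA factors were measured on the same arrays. The counts below are to be read against the 72.6% of all named genes detected. All 10 primitive endoderm markers were detected, with a median level of -2.46. The brightest were Lama1 (4.21 ± 0.03), Col4a1 (0.40 ± 0.07), Hnf4a (-1.12 ± 0.10) and Sox7 (-1.89 ± 0.08). Of the GATA factors among them, Gata6 gave 100, 81.5 and 94.0, and Gata4 gave 98.1, 104 and 101. Of 8 mesoderm markers 3 were detected (Kdr, Tbx6 and Gsc), T and Mesp1 were above background on some arrays, and Mixl1, Hand2 and Foxf1 on none. Of 10 fibroblast markers 6 were detected, led by Fn1 (6.67 ± 0.03), and Col3a1, Col5a2, Postn and Lum were not detected on all arrays. Of 7 markers of stratified epithelium 5 were detected, led by Trp63 (2.41 ± 0.03), and Krt1 and Ivl were not. Of Trp63, only 1 of 2 probes was detected on all arrays, and the same held for Kdr, Krt5 and the primitive endoderm marker Foxa2. What part such cells had in the signals of Krt7, Krt8, Krt18, Gata2 and Gata3 was not tested.

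**Figure D5:**
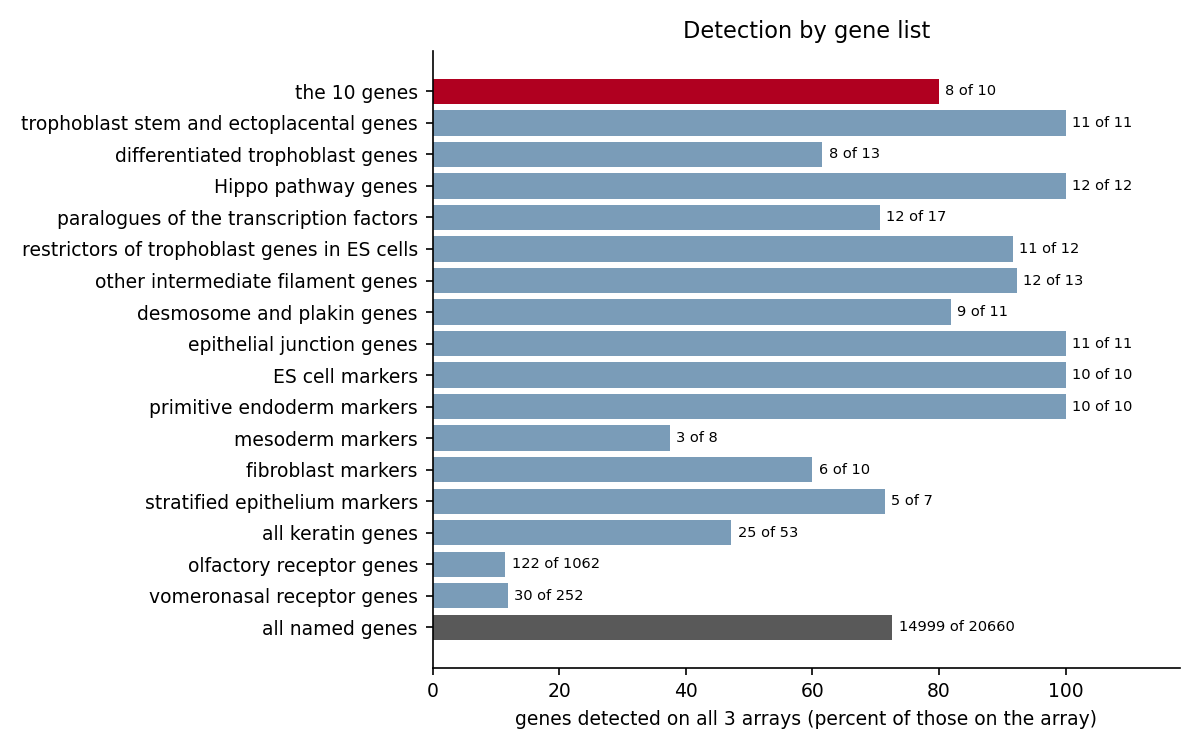
Percent of the genes of each list on the array that were detected on all 3 arrays, with the counts at the bar ends. The 10 genes (red) stand at 8 of 10 and all named genes (dark) at 14999 of 20660, between the receptor genes at 122 of 1062 and 30 of 252 and the lists detected in full.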

How the data were processed

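Total RNA of 3 PD-treated J1 mESC samples was labelled with Cy3 and hybridised to 1 array each. Per the file headers, the deposited spot intensities were made with Agilent Feature Extraction 10.7.3.1 (protocol GE1_107_Sep09), which subtracted the background, and were not normalized between arrays. The other flags deposited per spot, 0 or 1, mark detection and outliers. The authors also deposited a table of log2 values, whose normalization is not given in the sources used here. Probes that were not controls (55681) were named through unversioned RefSeq accessions, and 27235 (48.9%) matched.

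The level was the log2 processed signal, without outlier spots, minus the 75th percentile over probes of the array. A probe was detected if at least a share of 0.5 of its spots were well above background. Where a gene had several probes, the brightest by mean level stood for it. Named were the 10 genes with all probes, and up to 4 of the brightest detected genes and the few undetected ones of each list. Bright keratins and the neighbours of Krt7, Krt8 and Krt18 were named too. The brightest keratins and ES cell markers are named only in part. Sox2 and Nanog were named as known ES cell markers and not by level. Krt27, and genes given only for a limit of their probes, also stand apart from the rule. Other genes named (Fgfr2, Dnmt1, Cdx1, Gata4 and Gata6) were added for their function after their values had been seen. An item that the rule would name is not reported here. The genes and lists were chosen with earlier results of these data known. The planned moderated F test needed probes with several spots and was not run. Normexp correction used limma 3.58.1 in R 4.3.3, with an offset of 50 on the spot and background medians. The calculation of SDs was tested on simulated data. Alternatives in scaling, background correction, detection rule, filter and replicates are given in the closing section. With 3 arrays, their number limits the precision.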

Additional observations from a re-analysis of the deposited data

How the results depend on the processing

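The count of detected genes was 8 under each alternative but the looser flag for positive and significant signals. That flag gave 9 genes by adding Cdx2, and the count of probes was then 10. The share of all named genes that pass the looser flag is not given here, so the 9 and the 10 have no background to be read against. Leaving out any replicate left 8 genes and 9 probes, which was fixed, since each probe was detected on all 3 arrays or on none. Requiring every spot to be well above background could not change the counts either, since each probe had 1 spot. Keeping outlier spots could not, since none of these spots carried an outlier flag. The median SD of the detected probes, 0.074 log2 units, lay between 0.071 and 0.101 under other scalings, corrections and sources, was 0.105 without a filter on dim probes and 0.059 to 0.095 when 1 replicate was left out. No probe had a range above 1 log2 unit under any of these settings. Omitting the blocks with many non-uniform spots, an alternative added after the data had been seen, could not change these values, since none of the 11 probes lay in such a block. Of 48 percentile ranks recomputed under other settings 5 moved beyond the spread between arrays. These were Cdx2, Tfap2c, Gata2 and Krt18 after normexp correction, by at most 1.74 points, and Eomes when its 2 probes were averaged, from 62.2 to 53.0. No paired analysis was possible because every array is of PD-treated cells. The limit for dim genes is the signal over background. Cdx2 and Elf5 lay below the lowest signal flagged well above background on each array, and Cdx2 still had the looser flag on all 3 arrays. That lowest signal is not a strict limit of detection, since Krt27 exceeded it on replicate 3 and was not detected there. It therefore sets no upper bound for Cdx2 and Elf5.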

Other observations

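A few genes of trophoblast and epithelium were above background on 1 array only. On replicate 1 these were Syna (14.2, 8.61 and 7.79 on replicates 1 to 3), Krt72 (18.8, 6.95 and 6.92), Krt4 (12.8, 8.40 and 5.10) and Pkp1 (14.5, 10.2 and 8.49). Others were so on replicate 3. Tpbpa, a marker of the spongiotrophoblast, gave signals of 2.23, 2.57 and 14.1 on replicates 1 to 3, Krt78 gave 2.35, 2.62 and 13.8, and the cornified envelope gene Ivl gave 8.38, 4.15 and 36.0. These genes were picked out after their values had been seen. Krt78 and Ivl have 2 probes each, and the brighter is given.

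In the deposited table Cdx2 had log2 values of 2.07, 2.50 and 2.45, Elf5 1.68, 1.19 and 1.23, Gata3 6.35, 5.87 and 6.44, and Tfap2c 12.46, 12.45 and 12.56. The median of each column was 5.18. For Elf5 the order of replicates 2 and 3 was the opposite of that with the scanner signals scaled by the 75th percentile. Its scanner signals on these arrays, 2.81 and 2.64, did not exceed the errors given for them by the software (2.82 and 2.65). No order of these arrays can be read from such values.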
